A study of Mus musculus with 12 samples.

Results

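Krüppel-like factors (KLF), early growth response factors (EGR) and 3 other early response genes were followed in mouse lung. The group was chosen by gene name: Klf2, Klf4, Klf6, Klf10, Egr1, Egr2, Egr3, Ier2, Ier3 and Nr4a1, 10 of the 56980 genes in the deposited table, and all 10 passed the filter on low counts. Klf2 and Klf4 were set apart from the other 8 as the pair that responds to blood flow in endothelial cells. RNA of lung tissue from male C57BL/6 mice aged 6-8 weeks was sequenced as 12 libraries that make 3 groups of 4. HBG mice received bleomycin, a drug that scars the lung, as 1 instillation of 5 mg/kg into the trachea, and, by mouth, 7 g/kg of Huashibaidu granules, which are made from a formula of Chinese herbs. Model mice received the same bleomycin and distilled water, and Control mice received distilled water, with no bleomycin stated. The labels give 2 timings for the granules, from 1 week before bleomycin to day 28, or for 14 days from day 7. Nothing in the labels ties the 4 libraries of a group to different animals. The p-values therefore describe spread among libraries, part of which could be technical.

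KLF and EGR proteins are zinc finger transcription factors. Laminar flow over endothelial cells activates the kinases MEK5 and ERK5, which act through MEF2 factors to switch on Klf2 and Klf4, and these then raise genes for an anti-clotting, anti-inflammatory vessel wall. The Egr genes, Ier2 and Nr4a1 are immediate early genes: growth factors, stress, injury or handling of tissue induce them within minutes through serum response factor, its partners and CREB, without new protein synthesis, and their transcripts are short-lived. In whole lung both kinds of signal are read as 1 mixture of cells, and fewer cells of a type cannot be told apart from less RNA per cell.

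Total estimated counts per library ranged from 17979863 to 20752001 in HBG, from 19230806 to 22622406 in Model and from 18864759 to 27150787 in Control. Levels are given as CPM, counts scaled to the library total with TMM factors, and a count of 0 would allow up to 0.11 to 0.167 CPM, for counting error only. The lung identity of the libraries was clear from Sftpc, the surfactant protein of type II alveolar cells, which averaged 12515 ± 3364 CPM in HBG, 14713 ± 1916 CPM in Model and 15874 ± 2471 CPM in Control (SD, n = 4 each). Libraries did not stand alike. Control 2 was the highest of the 12 libraries for 8 of the 10 genes (all except Klf10 and Ier3). HBG 1 was the lowest for 4 (Klf2, Klf4, Klf6 and Klf10). Control 2 also had the largest sum over 8 cardiac muscle markers, 5414 CPM, where the sums ranged from 329 to 3264 CPM in HBG, from 343 to 3122 CPM in Model and from 816 to 2845 CPM in the other Control libraries. HBG 1 had the smallest sum over 18 endothelial markers, 2278 CPM, where the remaining 11 libraries lay between 3410 and 7687 CPM. The part of these differences in the results below was not tested.

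Levels of different genes are compared as TPM, which also divides by the deposited gene length. Over all 12 libraries Ier3 had the highest mean level at 175 TPM (range 116 to 236) and Klf2 the next at 150 TPM (77.7 to 268). Egr1 (99.6 TPM), Klf6 (93.4), Klf4 (91.4), Nr4a1 (82.2) and Ier2 (81.7) followed, with ranges that overlapped between every neighbouring pair. Klf10 averaged 26.2 TPM, and its range of 20.5 to 34.8 TPM lay below that of Ier2, which began at 43.9 TPM. Egr2 at 5.86 TPM and Egr3 at 1.72 TPM were the scarcest of the group, again with overlapping ranges. The highest CPM exceeded the lowest 54.0-fold for Egr1, 18.2-fold for Egr2 and 17.0-fold for Nr4a1, 3.76-fold for Klf2, 3.25-fold for Klf4 and 1.54-fold for Klf10. Without Control 2 the factors were 12.2 for Egr1, 5.26 for Egr2 and 3.58 for Nr4a1, the last close to the 3.44 of Klf2, and 1.82 for Klf6 and 2.40 for Ier3.

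**Figure D1:**
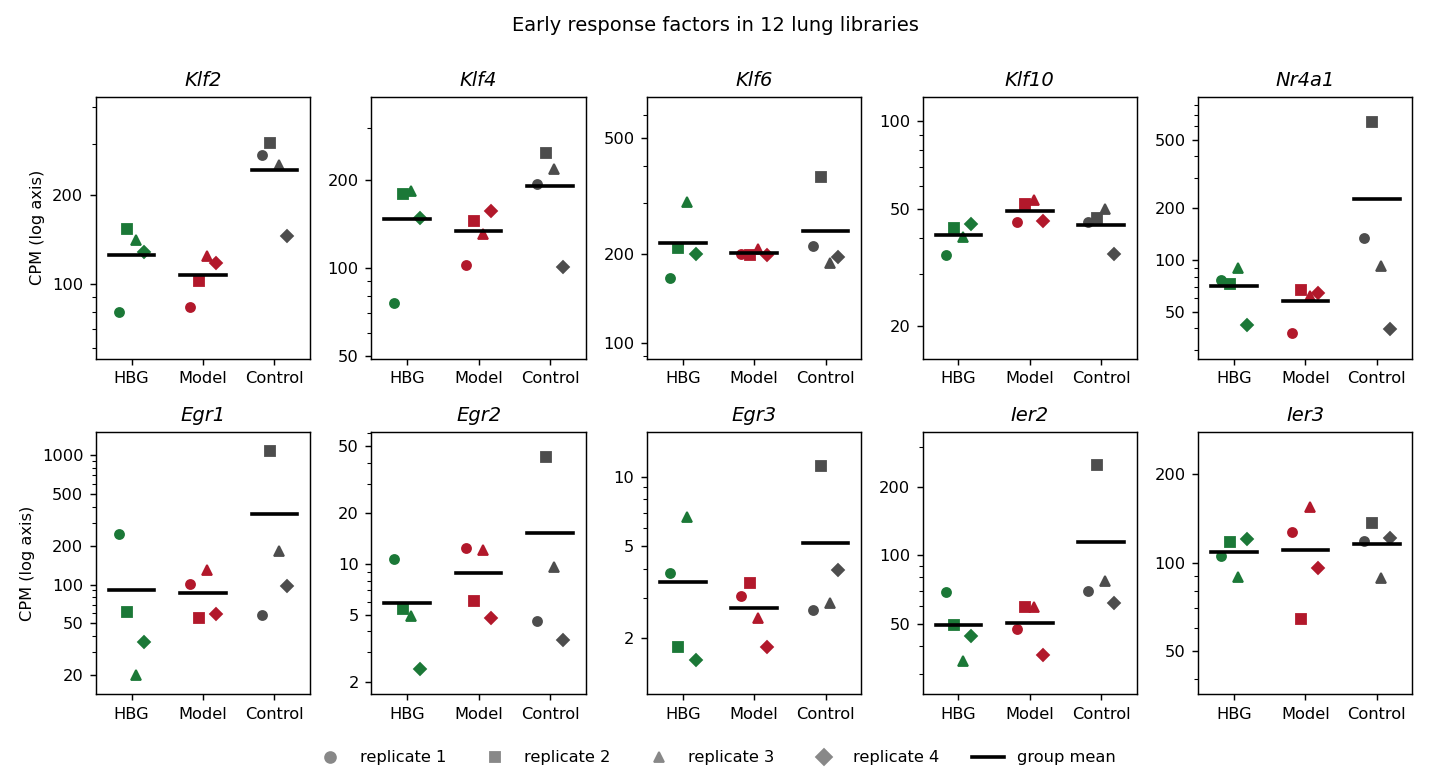
CPM of each gene on log axes in the 12 libraries, with HBG, Model and Control from left to right; symbols give the replicate number and black lines the group means (n = 4 each). Klf2 in Model lies below every Control library, and the square at the top of most Control columns is Control 2, at 1079 CPM for Egr1.

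Klf2 (ENSMUSG00000055148), the flow-induced factor that raises thrombomodulin and endothelial nitric oxide synthase, had Model and Control groups that did not overlap. It had 80.1, 153, 141 and 128 CPM in HBG libraries 1 to 4. In Model it had 83.1, 102, 125 and 118 CPM, and in Control 276, 301, 254 and 145 CPM. Every Model library lay below the lowest Control library, and so did 3 of the 4 HBG libraries, HBG 2 being the exception. The level averaged 107 ± 18.4 CPM in Model and 244 ± 68.6 CPM in Control (SD, n = 4 each), a log2 fold change of -1.19 ± 0.24 (SE) with an adjusted p of 0.0791 by edgeR's quasi-likelihood test. That misses the 0.05 threshold, which 0.348% of the 17827 genes tested passed in this comparison. Klf2 ranked 90 of 17827 by p. DESeq2 called it lower in Model (adjusted p 0.000706, where 2.61% of genes were called), and so did limma-voom with sample weights (adjusted p 0.0116, where 6.05% were called). Without Control 4, the lowest Control, the log2 fold change of Model against Control was -1.38 with an adjusted p of 0.0273, and over the other 7 single omissions the adjusted p stayed above the threshold, up to 0.246.

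Klf2 did not pass the test between HBG and Model. The mean was 125 ± 31.9 CPM in HBG and 107 ± 18.4 CPM in Model, a log2 fold change of 0.23 ± 0.24 with an adjusted p of 1.0. Between HBG and Model edgeR called 0 of 17827 genes (0%), with 433 genes at an unadjusted p under 0.05, DESeq2 called 4 (0.0225%) and limma-voom 0. Against Control, Klf2 in HBG was -0.96 ± 0.24 on the log2 scale (edgeR adjusted p 0.230, DESeq2 adjusted p 0.0254). In that comparison edgeR called 0.151% of genes and DESeq2 1.15%. Both comparisons against Control share the same 4 Control libraries.

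The sequence around the start of Klf2 is shown because it holds, within 300 bases, the MEF2 site through which the ERK5 route is known to act on this gene. It covers 250 bases before to 50 bases after the start listed by RefSeq, at chr8:72318812-72319111 on the plus strand of GRCm38.p6, with the MEF2 site in capitals.
Klf2: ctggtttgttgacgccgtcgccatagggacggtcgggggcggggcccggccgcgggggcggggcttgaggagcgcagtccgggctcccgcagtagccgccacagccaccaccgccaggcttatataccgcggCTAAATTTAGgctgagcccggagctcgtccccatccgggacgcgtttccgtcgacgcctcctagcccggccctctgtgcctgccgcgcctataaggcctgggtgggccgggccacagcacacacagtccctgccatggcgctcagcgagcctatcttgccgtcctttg
The site, searched by its name on both strands, began at position -118 from the start and was present in 3.16% of 32544 promoters of the same length. The Klf4 window held no match to it. A match is a description of the letters, not evidence of binding.

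Klf4 (ENSMUSG00000003032), the second flow-induced factor, which is also made by epithelium and smooth muscle, had 76.1, 179, 184 and 148 CPM in HBG libraries 1 to 4. In Model it had 102, 144, 131 and 156 CPM, and in Control 193, 247, 217 and 100 CPM. The groups overlapped, because Control 4 lay below all 4 Model libraries while the other 3 Controls lay above them. Klf4 was -0.51 ± 0.30 on the log2 scale in Model against Control (edgeR adjusted p 0.532), 0.14 ± 0.30 in HBG against Model (adjusted p 1.0) and -0.37 ± 0.30 in HBG against Control (adjusted p 0.759).

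Whether Klf2 and Klf4 differed from each other was tested as their ratio within each library, in which library scaling cancels. The log2 ratio of Klf2 to Klf4 was 0.07, -0.23, -0.39 and -0.21 in HBG libraries 1 to 4. It was -0.30, -0.50, -0.07 and -0.40 in Model, and 0.51, 0.28, 0.23 and 0.53 in Control. All 8 libraries from bleomycin-treated mice lay below all 4 Control libraries. The mean ratio was -0.32 ± 0.18 in Model and 0.39 ± 0.15 in Control, a difference of -0.71 with an exact two-sided permutation p of 0.0286, the smallest that 4 against 4 libraries can give. Adjusted over the 15 values tested (5 ratios in 3 comparisons) the p was 0.214, so it fails the correction. HBG differed from Control by -0.58 (exact p 0.0286, adjusted 0.214) and from Model by 0.13 (exact p 0.371, adjusted 0.626). The separation from Control did not rest on the libraries in which both genes were low: Control 4, HBG 1 and Model 1 each kept to their group's side.

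The amount of endothelial RNA was set beside the Klf2 difference. Cdh5, which encodes VE-cadherin of endothelial junctions, had a mean of 547 ± 379 CPM in HBG, 587 ± 350 CPM in Model and 463 ± 100.1 CPM in Control (SD, n = 4 each). Relative to Cdh5, Klf2 was lower by a log2 difference of -1.342 in Model against Control (exact permutation p 0.0857, adjusted 0.429) and -0.94 in HBG against Control (exact p 0.143, adjusted 0.536), and 2 of the 4 Model ratios lay below every Control. Klf4 relative to Cdh5 differed by -0.64 in Model against Control (exact p 0.257, adjusted 0.626). None of these ratios passed after adjustment. The log2 ratio of Klf2 to Cdh5 was -1.91, -3.39, -1.45 and -2.41 in Model libraries 1 to 4. It was -0.83, -0.10, -0.91 and -1.94 in Control, so Model 2 stood lowest and weighed on the Model mean. Of the 18 endothelial markers, 9 were higher and 9 lower in Model than in Control, with a median log2 fold change of -0.00, and none passed the edgeR threshold. They summed to a mean of 5171 CPM in Model and 5205 CPM in Control. Without Model 2 the Model mean was 4463 CPM. Chosen after their values were seen, Sox18, a transcription factor of vessel development, was -1.09 (adjusted p 0.181) and Cldn5, the tight junction claudin of endothelium, was -0.72 (adjusted p 0.327) in Model against Control. The largest rise among the 18 was 0.50. DESeq2 and limma-voom each called 1 of the 18, where 2.61% and 6.05% of all genes were called. Groups were separated for 1 of the 18, lower in Model, where 4.51% of all genes were.

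**Figure D2:**
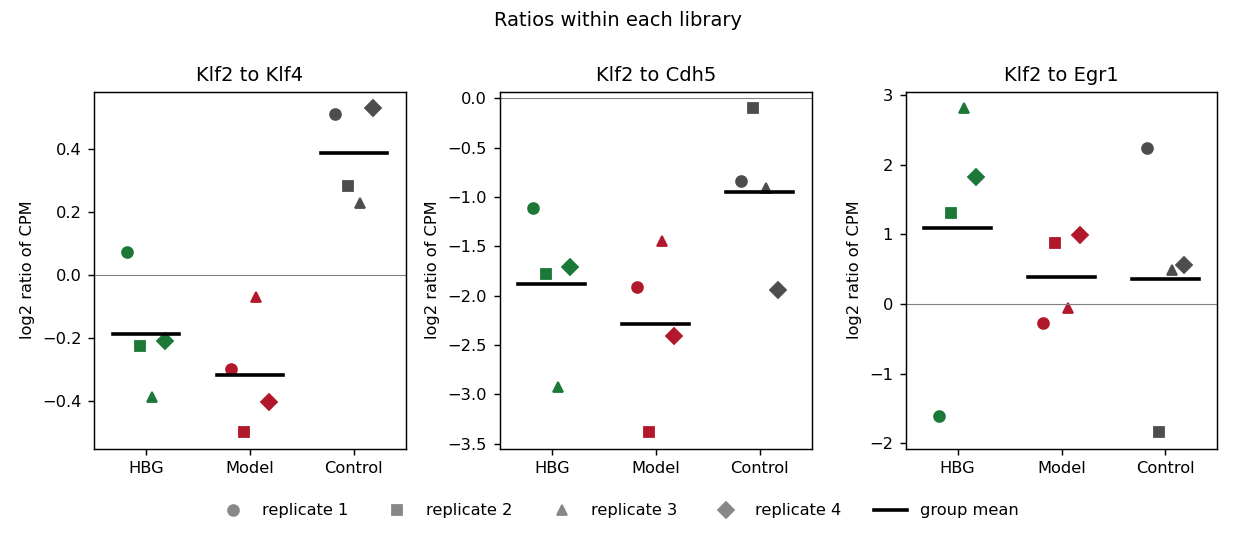
log2 ratios of CPM within each library for Klf2 to Klf4, Klf2 to Cdh5 and Klf2 to Egr1, with HBG, Model and Control from left to right, replicates as symbols and group means as black lines (n = 4 each). The Klf2 to Klf4 ratio is above 0.2 in every Control library and below 0.1 in every other library, whereas Klf2 to Egr1 spans from -1.84 to 2.23 within Control alone.

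Klf6 (ENSMUSG00000000078), a factor induced by tissue injury, had 166, 210, 301 and 201 CPM in HBG libraries 1 to 4. The Model libraries had 201, 199, 209 and 198 CPM and the Control libraries 213, 369, 187 and 196 CPM. The Model libraries were alike, with an SD of log2 CPM at the 0.830th percentile of the genes tested, while HBG 3 and Control 2 stood above the rest. The log2 fold change was -0.26 ± 0.22 in Model against Control (edgeR adjusted p 0.695), and 0.12 ± 0.22 in HBG against Model (adjusted p 1.0). Without Control 2 the Model value against Control was 0.01.

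Klf10 (ENSMUSG00000037465), which is induced by TGF-beta, was the steadiest gene of the group. It had 34.9, 43.3, 40.4 and 44.5 CPM in HBG libraries 1 to 4, 45.3, 52.2, 53.8 and 45.7 CPM in Model and 45.1, 46.8, 50.3 and 35.3 in Control. All 4 HBG libraries lay below all 4 Model libraries, by less than 1 CPM between HBG 4 and Model 1. Klf10 was the only member whose HBG and Model groups did not overlap, 1 of 10, where 0.673% of all genes tested were separated in this direction. Its log2 fold change in HBG against Model was -0.27 ± 0.12, and the edgeR adjusted p of 1.0 does not pass. It was 0.15 ± 0.12 in Model against Control, the only member that was not lower there, with an adjusted p of 0.664.

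Egr1 (ENSMUSG00000038418), the immediate early factor that also takes part in fibrotic responses to TGF-beta, ranged most widely. It had 244, 61.6, 20.0 and 36.3 CPM in HBG libraries 1 to 4. In Model it had 100.5, 55.6, 130 and 59.0 CPM, and in Control 58.6, 1079, 181 and 98.03 CPM. The group means were 90.5 ± 104 CPM in HBG, 86.2 ± 35.5 CPM in Model and 354 ± 486 CPM in Control (SD, n = 4 each), so in HBG and in Control the SD exceeded the mean. The log2 fold change of Model against Control was -2.04 ± 0.95 (edgeR adjusted p 0.434) with all Control libraries and -0.40 (adjusted p 0.932) without Control 2. HBG against Model gave 0.07 ± 0.91 (adjusted p 1.0), and -1.14 without HBG 1, the HBG library with the most Egr1. HBG against Control gave -1.97 ± 0.95 (adjusted p 0.612), and -0.34 (adjusted p 0.985) without Control 2.

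Egr2 (ENSMUSG00000037868), known for myelination and for restraint of T cell activation, had 10.8, 5.46, 4.91 and 2.38 CPM in HBG libraries 1 to 4. The Model libraries had 12.5, 6.06, 12.1 and 4.82 CPM and the Control libraries 4.58, 43.3, 9.68 and 3.55 CPM. Leaving out Control 2 turned its log2 fold change in Model against Control to 0.56, against -0.78 ± 0.73 with all libraries (edgeR adjusted p 0.715). Egr3 (ENSMUSG00000033730), its close relative, had 3.82, 1.84, 6.71 and 1.61 CPM in HBG, 3.04, 3.48, 2.44 and 1.83 CPM in Model and 2.64, 11.2, 2.84 and 3.95 in Control. These are low counts, 29 to 223 per library. Egr3 was -0.93 ± 0.54 in Model against Control (adjusted p 0.530), and -0.23 (adjusted p 0.947) without Control 2, its highest library. HBG against Model gave -0.59 ± 0.73 for Egr2 and 0.38 ± 0.54 for Egr3, both with an adjusted p of 1.0.

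Nr4a1 (ENSMUSG00000023034), an orphan nuclear receptor induced through CREB and MEF2, had 76.9, 72.6, 90.1 and 41.9 CPM in HBG libraries 1 to 4. The Model libraries had 37.5, 66.7, 61.4 and 64.4 CPM and the Control libraries 134, 636, 92.2 and 39.8 CPM. Control 1 and Control 2 lay above every other library, and Control 4 was the second lowest of the 12. The log2 fold change was -1.97 ± 0.67 in Model against Control (edgeR adjusted p 0.287), and -0.63 without Control 2. It was 0.29 ± 0.65 in HBG against Model (adjusted p 1.0) and -1.68 ± 0.67 in HBG against Control (adjusted p 0.543), which was -0.34 (adjusted p 0.937) without Control 2.

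The starts of Egr2 and Nr4a1 are shown because they carry the letters by which serum response factor and CREB are known to reach early response genes. Capitals mark the CArG box, the site of serum response factor, in Egr2 (chr10:67537619-67537918, plus strand, GRCm38.p6) and CGTCA, the core of the CREB site, in Nr4a1 (chr15:101266596-101266895, plus strand, GRCm38.p6). Egr2 has 5 starts in RefSeq. The window shown was chosen by its matches, as 1 of 2 windows that lie 1 base apart and hold 4 motif matches each, and 4 of the 5 windows held a CArG box.
Egr2: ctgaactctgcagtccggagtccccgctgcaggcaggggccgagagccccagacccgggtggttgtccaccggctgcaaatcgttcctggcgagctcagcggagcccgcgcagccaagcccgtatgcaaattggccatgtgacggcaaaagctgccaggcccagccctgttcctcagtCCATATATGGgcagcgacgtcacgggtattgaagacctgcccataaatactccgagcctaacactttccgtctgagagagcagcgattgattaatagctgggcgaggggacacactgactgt
Nr4a1: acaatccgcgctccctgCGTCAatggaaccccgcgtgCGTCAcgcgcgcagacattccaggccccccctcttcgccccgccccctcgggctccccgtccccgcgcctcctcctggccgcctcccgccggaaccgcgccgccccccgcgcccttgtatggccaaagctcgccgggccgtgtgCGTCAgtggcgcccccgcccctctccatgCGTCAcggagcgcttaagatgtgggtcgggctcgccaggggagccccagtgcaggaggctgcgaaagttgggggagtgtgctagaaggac
The CArG box of Egr2 began at position -72, and a CArG box was present in 1.64% of 32544 promoters, or in at least 1 promoter of 1.82% of genes. CGTCA stood 4 times in the Nr4a1 window, at -233, -213, -69 and -40, and was present on either strand in 20.9% of promoters. The motif also occurred in the Klf2, Klf4 and Egr2 windows. CACCC, the box that KLF proteins bind, was found on either strand in 57.7% of promoters, among them Klf2 and Egr2. The windows of Klf6 and Ier3 held none of these 4 motifs. Windows were matched for 6 of the 10 genes by symbol. Klf10, Egr1, Egr3 and Ier2 were not matched.

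Ier2 (ENSMUSG00000053560), a small nuclear protein of the immediate early set, had 68.8, 49.6, 34.5 and 44.4 CPM in HBG libraries 1 to 4. The Model libraries had 47.3, 59.1, 59.5 and 36.5 CPM and the Control libraries 70.02, 249, 77.3 and 61.8 CPM. Every Model library lay below every Control library, by a small margin between Model 3 and Control 4. Ier2 was -1.18 ± 0.41 on the log2 scale in Model against Control (edgeR adjusted p 0.306), and -0.47 without Control 2. In HBG it was -0.04 ± 0.41 against Model (adjusted p 1.0) and -1.21 ± 0.41 against Control (adjusted p 0.478), which was -0.51 (adjusted p 0.808) without Control 2. Ier3 (ENSMUSG00000003541), a survival protein induced by NF-kappaB and p53, had 105, 118, 89.3 and 121 CPM in HBG, 127, 64.4, 154 and 95.6 CPM in Model and 118, 136, 88.5 and 122 in Control. Its groups overlapped throughout. The log2 fold change of Ier3 was -0.07 ± 0.23 in Model against Control and -0.03 ± 0.23 in HBG against Model, and Control 2 was not apart from the other Controls.

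**Figure D3:**
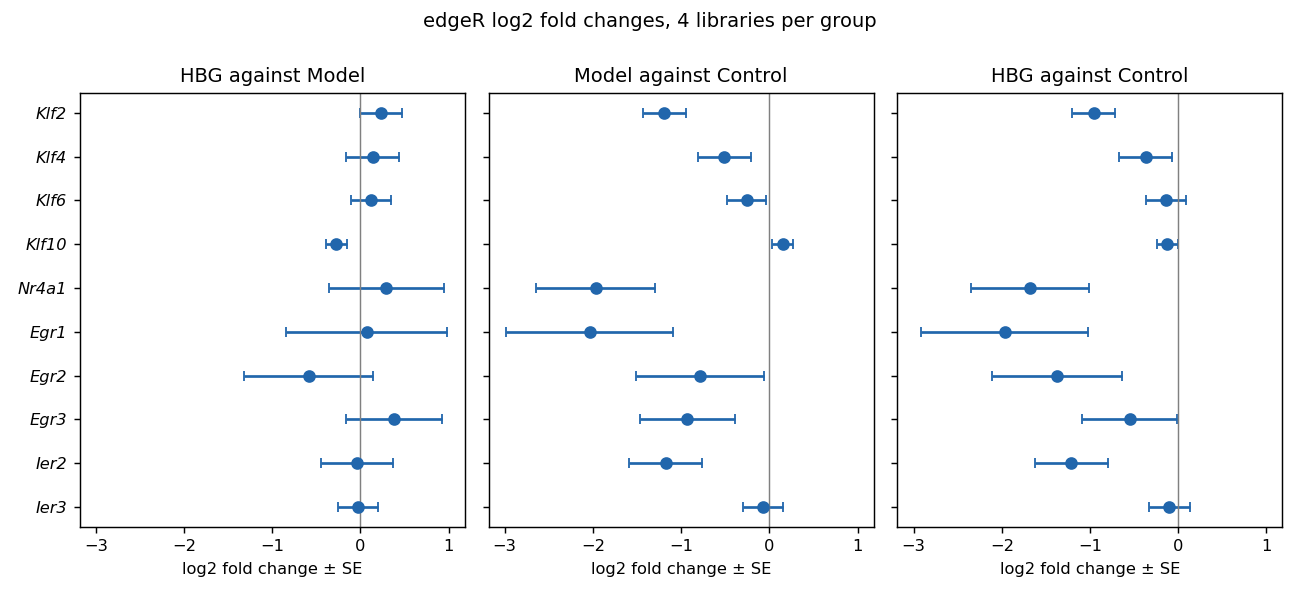
edgeR log2 fold changes with their SE (bars) for the 10 genes in the comparisons of HBG against Model, Model against Control and HBG against Control, 4 libraries per group. The bars of the Egr genes and Nr4a1 are wide, and the bars of Klf2 are among the narrower ones and lie below -0.7 in both comparisons against Control.

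Counted together, 9 of the 10 genes were lower and 1 was higher in Model than in Control, with a median log2 fold change of -0.86, against 0.01 over all genes tested. None passed the edgeR threshold. Klf2 and Ier2 were the 2 genes, of 10, whose groups did not overlap, both lower in Model, where 4.51% of all genes tested were separated in that direction. In HBG against Control all 10 were lower, with a median of -0.76. None of the 10 had separated groups there, where 3.92% of genes were separated downwards. In HBG against Model 6 were higher and 4 lower, with a median of 0.09. The counts differed without Control 2: 6 genes were lower and 4 higher in Model than in Control (median -0.29), and 8 were lower and 2 higher in HBG than in Control (median -0.17). Among the genes with a log2 fold change beyond -1 in Model, Klf2 moved least: without Control 2 it was -1.08 in Model and -0.85 in HBG against Control (edgeR adjusted p 0.226 and 0.535).

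**Figure D4:**
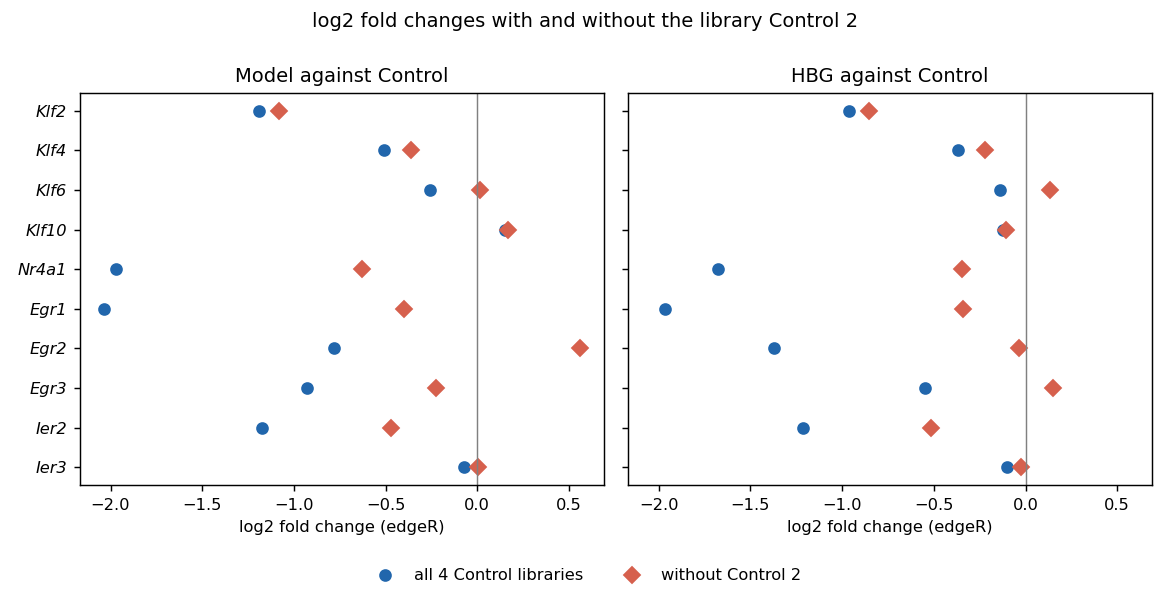
edgeR log2 fold changes of the 10 genes in Model against Control and HBG against Control, with all 4 Control libraries (circles) and without Control 2 (diamonds). In Model against Control, Egr1 is -2.04 with all 4 Control libraries and -0.40 without Control 2, Egr2 passes to the other side of 0, and Klf2 stays below -0.8 in both panels.

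Control 2 exceeded the mean of the other 3 Controls 9.58-fold in Egr1, 7.30-fold in Egr2, 7.17-fold in Nr4a1, 3.56-fold in Ier2 and 3.55-fold in Egr3. For Klf6 the factor was 1.85, for Klf4 1.45, for Klf2 1.338, for Ier3 1.24 and for Klf10 1.07. The spread of the Control group was set beside that of all genes tested. The SD of log2 CPM stood at the 99.6th percentile for Egr1, the 99.4th for Nr4a1, the 99.2nd for Egr2, the 96.1st for Egr3 and the 95.9th for Ier2. It stood at the 88.9th percentile for Klf4, the 84.2nd for Klf2, the 83.0th for Klf6, the 65.7th for Ier3 and the 58.1st for Klf10.

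The library-to-library variation within groups was compared between genes. It was measured as each library's log2 CPM minus its group mean, over 12 libraries that share scaling and, within a group, a common mean, and it is given as a description. Klf2 and Klf4 moved together (Pearson r 0.95, Spearman rho 0.73). Klf4 was the gene closest to Klf2, and Klf2 the gene closest to Klf4, among 12060 genes of at least 5 CPM. Without Control 4 and HBG 1, the libraries in which both were lowest relative to their group mean, r was 0.81. Egr1 moved with Egr2 (r 0.88, rho 0.88) and with Ier2 (r 0.88, rho 0.86). Without Control 2 and HBG 1, the values were 0.69 for Egr2 and 0.67 for Ier2. Egr3 followed Egr1 less closely (r 0.41, and 0.06 without Control 2). Klf2 had r from -0.08 to 0.18 with Egr1, Egr2, Egr3 and Ier2, and from -0.38 to -0.08 without Control 2. Klf4 had r from -0.15 to 0.12 with them, and from -0.48 to -0.15 without Control 2. With the remaining early response genes the pair had higher values, except for Ier3. Klf6 had r 0.56 with Klf2 and 0.60 with Klf4, and Klf10 had 0.82 and 0.79. Among the 32 other immediate early genes tested, r with Klf2 ran from -0.42 for Myc to 0.76 for Csrnp1 (median 0.23) and exceeded 0.5 for 6, and r with Egr1 had a median of 0.67. HBG 1 had the lowest Klf2 and Klf4 of all 12 libraries and the highest Egr1 outside Control 2. It also had the least endothelial RNA, and its log2 ratio of Klf2 to Cdh5, -1.12, was the highest of the HBG libraries. That ratio was below those of Control 1, 2 and 3 (-0.83, -0.10 and -0.91) and above that of Control 4 (-1.94). The part of endothelial RNA in the Klf2 level of HBG 1 was not tested.

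**Figure D5:**
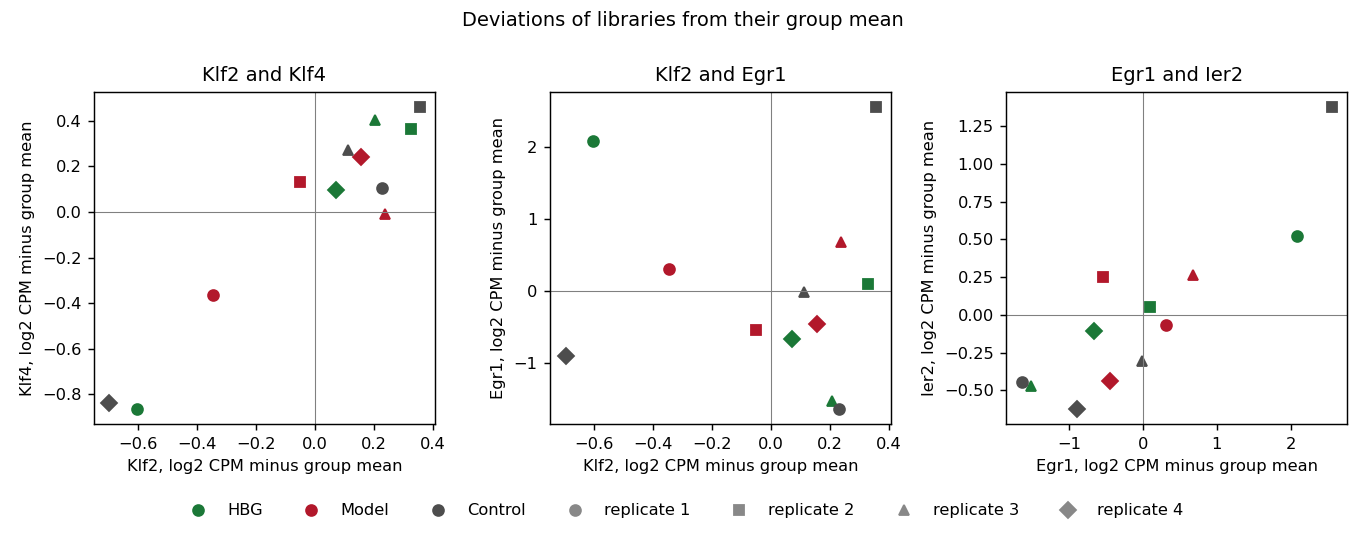
Deviation of each of the 12 libraries from its group mean in log2 CPM, for Klf2 and Klf4, Klf2 and Egr1, and Egr1 and Ier2; colours give the group and symbols the replicate number. Points for Klf2 and Klf4 follow a diagonal (r 0.95), while Klf2 and Egr1 show none (r -0.08).

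The deviations of Nr4a1 had r 0.59 with Klf2, 0.57 with Klf4 and 0.55 with Egr1, and the value with Egr1 was 0.14 without Control 2. The value of Klf10 with Klf2 was 0.43 without Control 4 and HBG 1. The genes whose log2 CPM was most like that of Klf2 over the 12 libraries, groups included, were Notum, Smndc1, Spry1, Bambi and Dnajb4 (r 0.90 to 0.87). For Klf4 they were Slc10a6, Zfp963, Mat2a, Dusp8 and Pla2g1b (r 0.92 to 0.86), and for Egr1 they were Fos, Rgs2, Junb, Ier2 and Fosb (r 0.94 to 0.89). Over the 12 libraries and the 18 endothelial markers, r with Klf2 ran from -0.31 for Emcn to 0.87 for Cldn5, with a median of 0.32 and 0.11 for Cdh5. With Klf4 the median was 0.49. With Egr1 r ran from -0.68 to 0.04 with a median of -0.57, and 16 of the 18 values were below 0. On the within-group deviations the medians for these markers were 0.45 with Klf2, 0.53 with Klf4 and -0.69 with Egr1. There r exceeded 0.5 for 8 of the 18 with Klf2 and for 12 with Klf4, and all 18 values with Egr1 were below 0. HBG 1, with the smallest endothelial sum (2278 CPM), deviated by -0.60 in Klf2, -0.87 in Klf4 and 2.08 in Egr1. Control 4 deviated by -0.70 in Klf2 and -0.84 in Klf4 at an endothelial sum of 5577 CPM. Control 2 deviated by 0.36 and 0.46 at 3976 CPM, the smallest sum in Control. The medians were not computed without HBG 1, and its weight in them was not tested.

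Genes around the group were read in the same fits. Of 34 other immediate early genes, 32 were tested, and in Model against Control 26 were lower and 6 higher, with a median log2 fold change of -0.56. A single one passed the edgeR threshold, which DESeq2 also called alone, whereas limma-voom called 3. Over all genes tested, edgeR called 0.348%, DESeq2 2.61% and limma-voom 6.05%. The 34 genes summed to 9512 CPM in Control 2 and to 2629 to 4249 CPM in the other Control libraries. In Model they summed to 2854 to 3590 CPM. The part of Control 2 in their lower values in Model was not tested. Jund, an AP-1 subunit that is expressed at a high constant level in many cells, had 100.01, 68.0, 53.0 and 86.7 CPM in HBG, 81.1, 58.8, 83.3 and 72.3 CPM in Model and 339, 395, 273 and 221 in Control. It fell in Model (log2 fold change -2.05, edgeR adjusted p 0.00157) and in HBG (-2.0, edgeR adjusted p 0.00249) relative to Control, and no library of either group reached the lowest Control. The routes upstream of the group were read next. Of 15 genes of flow sensing and the MEK5-ERK5-MEF2 route, 14 were higher and 1 lower in Model than in Control, with a median of 0.17, and none passed. The most abundant were Pecam1 (0.30), Cdh5 (0.34) and Heg1 (0.14), which belong to endothelial junctions. The 15 genes summed to a mean of 2865 CPM in Model and 2426 CPM in Control. Without Model 2 the Model mean was 2411 CPM, so the higher sum rested on that library. Of 10 genes of serum response factor, its partners and ERK signalling, 8 were higher and 2 lower (median 0.12), and Mapk3 was 0.22 and Elk3 0.26, none past the threshold. The EGR co-repressors Nab1 and Nab2 were 0.27 and -0.02 in Model against Control, neither past the threshold.

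Genes downstream of Klf2 and Klf4 were split in direction. Of 7 endothelial genes that KLF2 or KLF4 is known to raise, 3 were higher and 4 lower in Model than in Control, with a median log2 fold change of -0.06 and none past the edgeR threshold. Thbd, which encodes thrombomodulin, averaged 662 ± 284 CPM in HBG, 622 ± 187 CPM in Model and 682 ± 115 CPM in Control (SD, n = 4 each). S1pr1, the sphingosine phosphate receptor of endothelium, was 0.25 and Tek, the angiopoietin receptor, -0.06 in Model against Control. S1pr1 had 11073 counts in Model 2, against 3235 to 6157 in the other Model libraries and 4304 to 7598 in Control. The 7 genes summed to a mean of 1416 CPM in Model and 1457 CPM in Control. Without Model 2 the Model mean was 1230 CPM. Of 6 genes known to be lowered by KLF2 or KLF4, 4 were higher and 2 lower (median 0.15), and the adhesion molecule Vcam1 was 0.20 and endothelin Edn1 -0.01. Of 13 other KLF genes, 10 were tested, with 4 higher and 6 lower (median -0.07), among them Klf9 (-0.11), Klf3 (0.14) and Klf13 (0.24).

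In HBG against Model, where edgeR called no gene, the other immediate early genes were higher in 11 and lower in 21 of 32 (median -0.08). The flow route had 6 higher and 9 lower of 15 (median -0.06), and the genes raised by KLF2 or KLF4 had 2 higher and 5 lower of 7 (median -0.09).

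Other signals that move with early response genes were listed beside them. All 10 heat shock genes were lower in Model than in Control (median -0.40), none past the edgeR threshold and 1 called by DESeq2 and by limma-voom, with Hspa8 at -0.14, Hsp90aa1 at -0.20 and Hspd1 at -0.30. The 10 genes summed to 4463 CPM in Control 2 and 5356 CPM in Control 3. Control 1 had 2940 CPM and Control 4 had 2390 CPM, within the Model range of 2362 to 3857 CPM. Of 11 circadian output genes 5 were higher and 6 lower (median -0.09), and of 10 glucocorticoid response genes 5 were higher and 5 lower (median 0.04). None of these passed the edgeR threshold. DESeq2 called 1 glucocorticoid gene, and limma-voom called 1 circadian and 1 glucocorticoid gene. Cell type markers differed in sign between types in Model against Control: 9 of 10 macrophage and monocyte markers (median 0.69), all 7 T cell markers (0.58), 4 of 5 B cell markers (0.46), all 5 neutrophil markers tested of 6 (0.53) and 6 of 7 fibroblast markers (0.50) were higher. Lower were 6 of 9 lung epithelial markers (-0.19), all 5 of smooth muscle (-0.18), all 8 of cardiac muscle (-1.23) and all 5 erythroid markers (-0.46). Model 2 stood above the other Model libraries in neutrophil, T cell and B cell markers. Its neutrophil markers summed to 560 CPM, against 31.9 to 94.8 CPM in the other Model libraries and 44.2 to 169 CPM in Control. Its T cell markers summed to 115 CPM, against 20.4 to 26.4 CPM in the other Model libraries and 11.2 to 51.5 CPM in Control, and its B cell markers to 224 CPM, against 25.8 to 41.8 CPM in the other Model libraries and 15.2 to 144 CPM in Control. Without Model 2, the mean sums in Model were below those in Control for all 3 types. None of these markers passed the edgeR threshold. DESeq2 called 2 macrophage markers, and limma-voom called 4 macrophage and 3 fibroblast markers. Each of these 2 tests also called 1 endothelial marker. Over all genes tested, DESeq2 called 2.61% and limma-voom 6.05% in this comparison. The part of the listed genes and markers in the differences of the early response genes was not tested.

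Base composition was set beside Klf2 as well. GC content of its transcript was 61.6%, at the 98.3rd percentile of the genes tested, and that of Ier2 60.9%, at the 97.7th, whereas Klf4 had 54.6% and Klf6 42.4% (median of tested genes 49.3%). In Model against Control the 591 genes with 60% to 65% GC had a median log2 fold change of -0.10, and the 3002 genes with 55% to 60% GC had 0.03. The 57 genes above 65% GC, where Jund lies with 67.1%, had a median of -0.77. Once GC content and length were corrected for, Klf2 was -0.98 in Model against Control (adjusted p 0.199). The Klf2 to Klf4 ratio then differed by -0.47 in Model (exact permutation p 0.0286) and by -0.33 in HBG (exact p 0.0571) against Control, so that the HBG and Control libraries no longer separated fully.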

How the data were processed

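Polyadenylated RNA of 12 lung libraries was measured with a TruSeq stranded kit and paired reads, per the labels' protocols. The values are estimated counts per gene as deposited by the authors. Their unit was read from the values, of which 10.0% to 15.1% per library were not whole. The submitters' processing notes name aligners (STAR 2.7.9a, HISAT2), counters (HTSeq, featureCounts 2.0.1), read trimmers (fastp, cutadapt, Trimmomatic 0.39), FastQC 0.11.9, DESeq2 1.34.0 and the builds mm10 and GRCm39, without saying which of them made the deposited values. The annotation is likewise not given in the sources used here. The deposited group means were not used. No step states how reads shared between related genes were counted.

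Estimated counts were rounded to whole numbers. After rounding, 22654 of 56980 genes had 0 counts in all libraries. No 2 libraries of a group agreed within sampling noise. edgeR 4.0.16 (R 4.3.3, limma 3.58.1, package data.table at version 1.17.8) was run with TMM factors, filterByExpr (17827 genes kept) and the quasi-likelihood F test on all 12 libraries with group as the only term. Adjusted p-values follow Benjamini and Hochberg over every gene tested, with a threshold of 0.05, and the SE was derived from the F statistic. The test was checked on simulated counts. TPM used the deposited gene length, and log2 CPM a prior count of 2. Ratios of CPM were compared by exact permutation over 70 splits. Alternatives were DESeq2 1.42.0, limma-voom with sample weights, RLE factors, 2 other filters (none, and a mean of at least 1 CPM), the 2 groups compared alone, the replicate block, a GC and length correction from GENCODE M21 transcripts (GC known for 98.1% of tested genes), each library left out and 3 libraries left out. For the ratios, 0.5 CPM was added, and Pecam1 or Ier2 replaced the denominator. Promoters came from RefSeq (GRCm38.p6) by symbol and were searched for the CArG box, the MEF2 site, CGTCA and CACCC on both strands.

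The 10 genes, the lists of related genes and cell type markers and the tests were chosen with earlier results of these data known. The text names all 10 genes. From each list it names those past the edgeR threshold or otherwise up to 3 of the highest mean CPM (in 2 lists, 1 such gene is not reported here), and for Klf2, Klf4 and Egr1 the 5 genes most correlated in log2 CPM over the 12 libraries. For cell type lists only counts are given, except for genes already named.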

Additional observations from a re-analysis of the deposited data

Results flagged for a closer look

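In each gene and group of 4 libraries, and in each of the 5 log2 ratios, the highest or lowest library was compared with the others by the gap to its nearest neighbour divided by the range of the group. Of 45 groups checked, 6 had a library beyond Dixon's critical value for 4 samples. For independent, normally distributed values chance gives about 1 in 20. The 45 groups share the same 12 libraries and the ratios reuse the genes, so 6 of 45 cannot be read against that rate. All 6 were the library Control 2, and in all 6 it was the highest. These genes were compared on the CPM scale. On the log2 CPM scale, added after the data were seen, only Ier2 of the 6 stayed beyond the critical value, and Nr4a1 in Model was beyond it too, with Model 1 the lowest (37.5 CPM), 2 of 30 groups in all. Control 2 had 1079 CPM of Egr1, 636 CPM of Nr4a1, 369 CPM of Klf6, 249 CPM of Ier2, 43.3 CPM of Egr2 and 11.2 CPM of Egr3. The other Control libraries ranged from 58.6 to 181 CPM for Egr1 and from 39.8 to 134 CPM for Nr4a1. For Klf6 they ranged from 187 to 213 CPM, and for Ier2 from 61.8 to 77.3 CPM. The same library had the largest sum of cardiac muscle markers, 5414 CPM, and its part in the levels was not tested. Klf2 at 301 CPM and Klf4 at 247 CPM were also highest in Control 2, but within the range that this comparison allows.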

How the results depend on the processing

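None of the 10 genes passed under edgeR with RLE factors, other filters, the 2 groups compared alone, or the GC and length correction. DESeq2, limma-voom and the omission of Control 4 each made Klf2 pass in Model against Control, and DESeq2 made it pass in HBG against Control. Replicate numbers did not pair the libraries: 3 of 12 same-numbered pairs had correlated deviations over 0.1 (range -0.36 to 0.48), and 1 library correlated best with its own number. Genes changed in Model against Control numbered 62, and 446 with DESeq2, 1079 with limma-voom, 25 with the replicate block, 25 with the GC and length correction and the replicate block, and 23 (without Control 3) to 67 (without Model 4) with 1 library left out. Each omission except that of Model 4 gave 39 or fewer. In HBG against Control they numbered 27, and 205, 101, 17, 16 and 16 to 25, the lowest without Control 3. In HBG against Model DESeq2 called 4. With the replicate block Klf2 was -1.19 in Model against Control (adjusted p 0.155), and the Klf2 to Klf4 ratio had an exact sign-flip p of 0.125, the smallest that 4 pairs allow.

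Some log2 values changed sign, none of them past a threshold, and the cause was not tested. In Model against Control they were Egr2 (0.31) and Ier3 (0.26) with limma-voom, Ier3 with the GC and length correction (0.014, with the replicate block 0.0012) and Ier3 without the 3 libraries Control 4, Model 2 and HBG 3 (0.12). In HBG against Model they were Klf6 (-0.0086), Egr1 (-0.98) and Egr3 (-0.32) with limma-voom, and Egr1 with the replicate block (-0.39). The GC correction with the block gave -0.38 for Egr1 and 0.0075 for Ier2, and the omission of the 3 libraries gave -0.072 for Klf6 and 0.19 for Ier2. In HBG against Control Ier3 was 0.077 with limma-voom. The Klf2 to Egr1 ratio in Model against Control was -0.21 with Ier2 in place of Egr1 and -0.072 without the 3 libraries. With 1 library left out, Model against Control ranged from -0.37 to 0.015 for Klf6, -1.12 to 0.56 for Egr2, and -0.28 to 0.12 for Ier3. HBG against Model ranged from -0.072 to 0.23 for Klf6, -1.14 to 0.40 for Egr1, -0.15 to 0.61 for Egr3, -0.24 to 0.10 for Ier2 and -0.22 to 0.18 for Ier3. HBG against Control ranged from -0.33 to 0.13 for Klf6 and -1.08 to 0.15 for Egr3. The Klf2 to Egr1 ratio ranged from -0.71 to 0.65 in Model and -0.011 to 1.62 in HBG against Control. In HBG against Model the Klf4 to Egr1 ratio ranged from -0.073 to 1.55 and Klf4 to Cdh5 from -0.029 to 0.56.

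The 4 libraries per group and the spread of the immediate early genes limit what can be seen: the SE of Egr1 in Model against Control was 0.95 on the log2 scale. Egr3 rests on 29 to 223 counts per library.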
